A study of Mus musculus with 12 samples.

Results

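The Myc, Max and Mxd network is a set of transcription factors that pair through a shared basic helix-loop-helix leucine zipper domain. The 9 genes Myc, Mycn, Max, Mxd1, Mxd3, Mxd4, Mxi1, Mnt and Mga were taken as a list, of 18193 genes measured, and 24 probe sets with a single gene symbol reported on them. For each gene the probe set with the highest mean over the 12 arrays was used, and the other 15 probe sets were examined beside it. RNA came from monolayers of MC38, a colon carcinoma line of the mouse, kept for 72 h or 24 h with GDC-0623, an inhibitor of MEK, at 100 nM or with the solvent DMSO. The 4 groups were 72 h GDC-0623, 72 h DMSO, 24 h GDC-0623 and 24 h DMSO, with 3 arrays each that the labels call biological replicates. All groups shared the same unmodified cell line, so any result is that of 1 line in culture. MEK is the kinase that activates ERK, and the comparisons ask how the network's transcripts differ with the inhibitor at each time.

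Myc binds DNA as a dimer with Max, mostly at the E-box sequence CACGTG, and there activates genes of ribosome biogenesis, nucleotide synthesis and metabolism. The Mxd proteins (Mxd1, Mxd3, Mxd4 and Mxi1) and Mnt compete for Max and for the same sites and recruit the Sin3 corepressor with its histone deacetylases. Mga is a very large Max partner that scaffolds a variant Polycomb complex. ERK signalling is known to raise Myc transcription and to stabilise the Myc protein, and Mxd1 and Mxd4 are known from cells that leave the cycle to differentiate, whereas Mxd3 is linked to proliferating cells.

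The E-box is the sequence on which activators and repressors of the network meet, so the members' own promoters were read for it. RefSeq promoter windows (mouse build GRCm38.p6, each with 250 bases before and 50 after an annotated start) were matched by symbol for 8 of the 9 members, which gave 10 windows. Those of Mxd4, Mnt and Max each held 1 E-box, whereas those of Mycn, Mxd1, Mxd3, Mxi1 and Mga held none. Both sets hold genes that were higher with the inhibitor at 72 h, Mxd4, Mnt and Max in the first and Mxd1 and Mxd3 in the second. These 3 windows are shown 5′ to 3′ on the gene's strand with the E-box in capitals. They lie at chr5:34187661-34187960 on the minus strand for Mxd4, chr11:74830674-74830973 on the plus strand for Mnt and chr12:76962199-76962498 on the minus strand for Max.
Mxd4: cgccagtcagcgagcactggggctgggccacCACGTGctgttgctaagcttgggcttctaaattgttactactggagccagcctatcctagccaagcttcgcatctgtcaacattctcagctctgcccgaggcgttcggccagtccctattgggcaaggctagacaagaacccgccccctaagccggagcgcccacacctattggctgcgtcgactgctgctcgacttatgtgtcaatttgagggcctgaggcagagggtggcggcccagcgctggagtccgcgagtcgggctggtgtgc
Mnt: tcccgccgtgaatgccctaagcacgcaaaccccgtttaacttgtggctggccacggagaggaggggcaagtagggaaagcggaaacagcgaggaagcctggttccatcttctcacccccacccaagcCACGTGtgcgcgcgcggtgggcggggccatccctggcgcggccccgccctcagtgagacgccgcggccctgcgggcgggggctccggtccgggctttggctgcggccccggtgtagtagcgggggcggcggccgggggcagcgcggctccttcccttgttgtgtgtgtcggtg
Max: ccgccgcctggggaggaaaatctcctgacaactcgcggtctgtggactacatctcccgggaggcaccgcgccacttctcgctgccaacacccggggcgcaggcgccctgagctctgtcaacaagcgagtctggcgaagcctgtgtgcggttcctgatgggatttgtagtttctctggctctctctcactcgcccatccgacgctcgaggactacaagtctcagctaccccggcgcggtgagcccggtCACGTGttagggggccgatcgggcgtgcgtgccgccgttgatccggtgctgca
The E-box began 219 bases before the annotated start in Mxd4, 123 before it in Mnt and 3 before it in Max. Of 32851 mouse promoter windows of this length, 7.15% held CACGTG, which reads the same on both strands. The ETS letters CCGGAAG were found in none of the members' windows on either strand and in 8.86% of all windows. The FOXO letters TGTTTAC occurred once, in 1 of 3 Mxi1 windows (3.65% of all windows), TTCCCGC, an E2F motif, once in that of Mxd3 (4.60%), and TTGGCGC, another, at 2 places in that of Mycn (2.45%). No window held letters of more than 1 of these motifs. A match is a description of the window, and binding was not measured.

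The values were RMA log2 intensities with array medians between 4.63 and 4.70. RMA gives the probe intensities of all arrays the same distribution before they are summarised per probe set. A shift shared by most transcripts therefore cannot be seen. On another scale, set by 9 hybridization control probe sets (the control scale), the median of all probe sets moved by 0.01 for the drug comparison at 72 h and by 0.17 at 24 h. The study hybridised a fixed amount of cRNA per array, so neither scale measures RNA per cell. There is no detection call. Readings under about 5 are in the range of background, where changes of a dim gene are compressed. Along the first principal component, which held 58.6% of the variance, 72 h GDC-0623 array 1 stood at 77.4, apart from 44.8 and 49.8 of the other 2 arrays of its group, and results that change without it are given both ways.

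The label of the cells was checked against marker transcripts. Of 9 epithelial carcinoma markers, 8, 6, 7 and 6 had a mean under 5 in 72 h GDC-0623, 72 h DMSO, 24 h GDC-0623 and 24 h DMSO cells, with the E-cadherin gene Cdh1 between 2.61 and 2.72 and the keratin gene Krt18 between 2.78 and 2.82. The highest group mean of the 9 was 5.62, that of Epcam in 72 h GDC-0623 cells, and the keratin gene Krt8, at 4.90 in 72 h GDC-0623 and 5.30 in 72 h DMSO cells, was the 1 epithelial marker called at 72 h (-0.40, adjusted p = 0.0133). None was called at 24 h in limma, where 1 had an unadjusted p under 0.05. The mesenchymal gene Vim stood between 13.57 and 13.77. Of 5 mesenchymal markers, 4 rose with GDC-0623 at 72 h and 3 at 24 h, where 13.8% and 13.3% of all genes were higher. Of the 5, 1 had a mean under 5 in each group but 72 h GDC-0623. The mean of all 5 per array lay between 10.71 and 11.12 in 72 h GDC-0623 against 9.59 and 9.71 in 72 h DMSO cells. It lay between 10.11 and 10.31 in 24 h GDC-0623 against 9.37 and 9.56 in 24 h DMSO cells. The part of these markers in the results on the network was not tested. In every group, 3 of 5 leukocyte, 4 of 4 endothelial and 3 of 4 melanocyte markers had a mean under 5. None of these markers was called at either time in limma, with 1 of them, at 72 h, at an unadjusted p under 0.05. A comparison of GDC-0623 with DMSO does not show whether such cells were present. Transcripts that ERK is known to drive served as a check of the drug. Of these, 8 of 10 fell at 72 h and 9 of 10 at 24 h, where 12.4% and 8.23% of all genes were lower. The immediate early gene Egr1 was lower by 5.57 ± 0.43 (SE) on the log2 scale at 72 h.

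After 72 h with GDC-0623, Myc was lower, and its partner Max and the antagonists Mxd4, Mxd1, Mxd3 and Mnt were higher. Myc fell 2.03-fold, and Mxd4 rose 4.07-fold, the widest change of the 9 genes. Thus 5 of the 9 genes were called higher than in DMSO cells, 1 was called lower and 3 (Mycn, Mxi1 and Mga) did not pass the test. A gene was called where the adjusted p of limma was under 0.05, and by that rule 26.3% of the 18193 genes were called at 72 h, 13.8% higher and 12.4% lower. Among the 9132 genes whose mean over the 12 arrays reached 6, a level that 8 of the 9 members share, the share was 43.5%. The members' median change was 0.33, beside -0.03 over all genes. Arrays of the groups did not overlap for 5 members that were higher and 2 that were lower. In these directions 21.3% and 23.7% of all genes were separated, and 33.0% and 35.6% of genes with a mean of at least 6. The count of higher members rested on every array, since it was 2 without DMSO array 1 or 2 and 3 without DMSO array 3 or any of the GDC-0623 arrays. Without GDC-0623 array 1, 2 members were called lower.

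After 24 h, Myc was already lower and Mxd4, Mxd3 and Mnt were higher, so 3 members were called higher and 1 lower, and the remaining 5 were not called. Without DMSO array 2 or GDC-0623 array 2, 1 member was called higher. The background at 24 h was 21.5% of all genes, 13.3% higher and 8.23% lower, and 36.3% of genes with a mean of at least 6. The median change was 0.12 for the members and -0.03 for all genes. Groups were separated for 3 members upwards and 1 downwards, against 21.2% and 20.0% of all genes. Of genes with a mean of at least 6 the shares were 35.4% and 27.5%, which these counts do not exceed. On the control scale, 5995 probe sets were called higher and 719 lower at 24 h, against 4186 and 3347 as deposited, and 4 members were called higher and 1 lower. Both comparisons measured bulk RNA, in which fewer cells with a transcript and less of it per cell cannot be told apart.

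**Figure D1:**
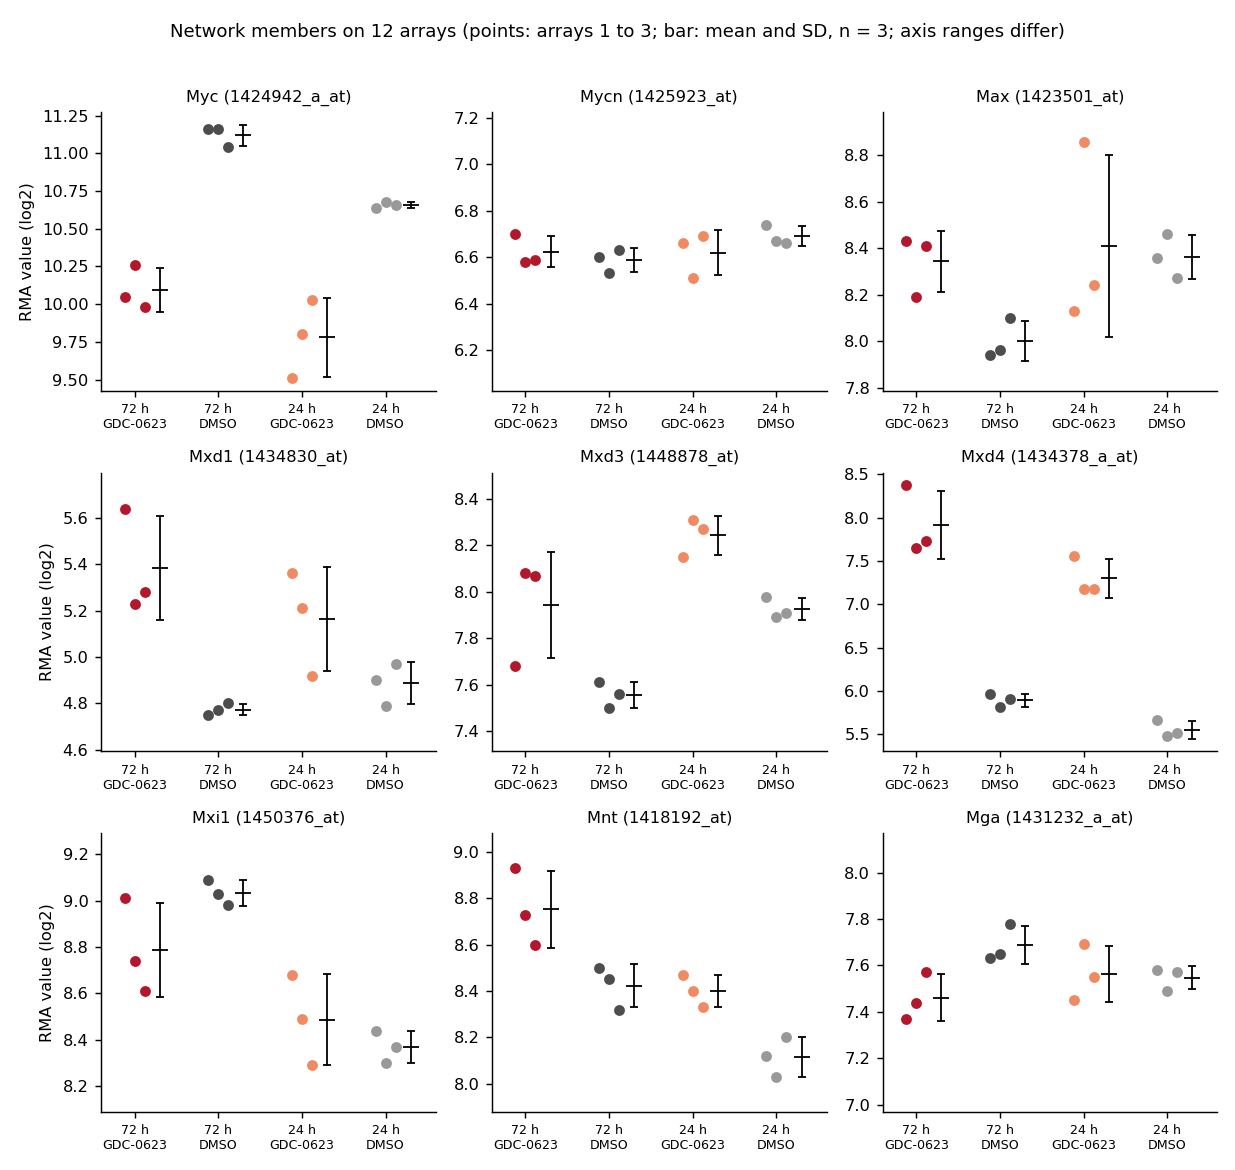
RMA values (log2, y axes with ranges that differ) of the 9 members on each of the 12 arrays, in the order 72 h GDC-0623, 72 h DMSO, 24 h GDC-0623 and 24 h DMSO; points are arrays and bars are the mean and SD of 3. Myc was lower and Mxd4 higher on every GDC-0623 array than on any DMSO array of the same time.

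**Figure D2:**
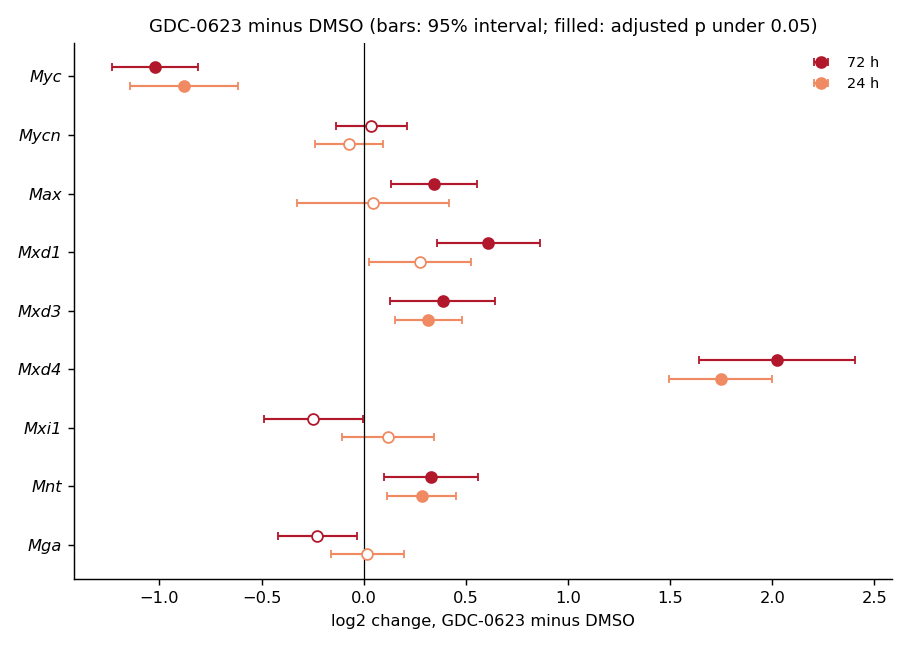
Log2 change (x axis, GDC-0623 minus DMSO) of each member at 72 h and at 24 h with its 95% interval; filled points had an adjusted p under 0.05. Mxd4 lay at 2.02 and 1.75, Myc at -1.02 and -0.88, and the other members between -0.25 and 0.61.

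Myc is the activator of the network. Its only probe set (1424942_a_at) read 10.05, 10.26 and 9.98 on the 72 h GDC-0623 arrays, against 11.16, 11.16 and 11.04 on the 72 h DMSO arrays. At 24 h the readings were 9.51, 9.80 and 10.03 with GDC-0623, against 10.64, 10.68 and 10.66 with DMSO. The order of the group means was thus 72 h DMSO, 24 h DMSO, 72 h GDC-0623 and 24 h GDC-0623, and the arrays overlapped only between the 2 GDC-0623 groups. The change was -1.02 ± 0.09 (SE, n = 3 against 3; adjusted p = 1.40e-04) at 72 h and -0.88 ± 0.12 (adjusted p = 9.53e-04) at 24 h. Without any 1 array the adjusted p stayed at or below 0.00164 at 72 h and 0.00543 at 24 h.

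Mycn, the paralogue best known from embryonic and neural tissue, was not called at either time. It stood at 6.70, 6.58 and 6.59 in 72 h GDC-0623 cells, against 6.60, 6.53 and 6.63 in 72 h DMSO cells, and the arrays overlapped. Its change was 0.04 (95% interval -0.14 to 0.21) at 72 h and -0.07 (-0.24 to 0.10) at 24 h, where the control scale gave 0.10. The other 2 probe sets of Mycn averaged 4.13 and 2.66, within the background range.

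Max, the partner shared by Myc and the antagonists, was higher with GDC-0623 than with DMSO at 72 h. From 24 h to 72 h, Max changed by -0.36 in DMSO cells (adjusted p = 0.0196) and by -0.07 in GDC-0623 cells, which was not called. The 72 h difference thus goes with a lower DMSO level at 72 h and not with a higher level in GDC-0623 cells. At 72 h the readings were as follows. Max read 8.43, 8.19 and 8.41 in GDC-0623 cells, against 7.94, 7.96 and 8.10 in DMSO cells, a change of 0.34 ± 0.09 (adjusted p = 0.0290). At 24 h the GDC-0623 arrays read 8.13, 8.86 and 8.24, on both sides of the 8.36, 8.46 and 8.27 of the DMSO arrays. The change there was 0.05 ± 0.17 (adjusted p = 0.889) and rested on GDC-0623 array 2, without which it was -0.18. The 72 h call was lost without DMSO array 1 (adjusted p = 0.102), DMSO array 2 (0.100), GDC-0623 array 1 (0.0809) or GDC-0623 array 3 (0.0848), and in 1 fit over all 12 arrays (0.115). Its printed promoter window has the E-box closest to the start.

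Mxd4 moved furthest among the Mxd antagonists. Its probe set 1434378_a_at read 8.37, 7.65 and 7.73 in 72 h GDC-0623 cells, against 5.96, 5.81 and 5.91 in 72 h DMSO cells. At 24 h it read 7.56, 7.17 and 7.17 with GDC-0623, against 5.67, 5.48 and 5.51 with DMSO. Every GDC-0623 array lay more than 1 log2 unit above every DMSO array at both times. The change was 2.02 ± 0.17 (adjusted p = 8.77e-05) at 72 h and 1.75 ± 0.11 (adjusted p = 1.83e-05) at 24 h. The highest 72 h value was that of GDC-0623 array 1, the array that stands apart, and without it the change was 1.80 (adjusted p = 1.92e-05). The other 3 probe sets of Mxd4 were called higher at both times too. At 72 h they changed by 1.72 ± 0.15 (1434379_at), 1.25 ± 0.13 (1422574_at) and 0.34 ± 0.09 (1422575_at), and at 24 h by 1.26 ± 0.11, 0.96 ± 0.11 and 0.54 ± 0.07. The last of them averaged 4.28, in the background range, where a change is compressed. The mean of the 4 probe sets changed by 1.33 at 72 h and 1.13 at 24 h and was called at both.

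Mxd1 was dim, and its rise was called at 72 h alone. The probe set read 5.64, 5.23 and 5.28 in 72 h GDC-0623 cells, against 4.75, 4.77 and 4.80 in 72 h DMSO cells, all of the last within the background range. The change was 0.61 ± 0.11 (adjusted p = 0.00467), and it held without any 1 array (adjusted p up to 0.0231). At 24 h the GDC-0623 arrays read 5.36, 5.21 and 4.92 and overlapped the 4.90, 4.79 and 4.97 of the DMSO arrays, with a change of 0.28 ± 0.11 (adjusted p = 0.129). Without 24 h GDC-0623 array 3 that change was 0.40 and was called (adjusted p = 0.0218). The other 2 probe sets of Mxd1 averaged 4.76 and 4.56 and were not called at either time, and at 72 h they disagreed in direction, with -0.15 (1422002_at) and 0.22 (1455104_at). The mean of the 3 probe sets changed by 0.23 at 72 h (adjusted p = 0.0475), so the size of the rise depends on the probe set.

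Mxd3 was higher with GDC-0623 than with DMSO at both times. It stood at 7.68, 8.08 and 8.07 in 72 h GDC-0623 cells, against 7.61, 7.50 and 7.56 in 72 h DMSO cells, and at 8.15, 8.31 and 8.27 in 24 h GDC-0623 cells, against 7.98, 7.89 and 7.91 in 24 h DMSO cells. The groups were separated at both times, most narrowly at 72 h between GDC-0623 array 1 and DMSO array 1. The change was 0.39 ± 0.11 (adjusted p = 0.0414) at 72 h and 0.32 ± 0.07 (adjusted p = 0.0153) at 24 h. Without 72 h GDC-0623 array 1 the 72 h change was 0.52 (adjusted p = 0.00354). Leaving out any of the other 5 arrays ended the call (adjusted p between 0.0856 and 0.133). Over all other settings run, with those that leave out an array, the 72 h call was kept in 7 and lost in 7. At 24 h the call ended without DMSO array 2, DMSO array 3 or GDC-0623 array 2 (adjusted p between 0.0550 and 0.0578). Its other 2 probe sets rose by 0.41 (1438847_at, adjusted p = 0.0291) and 0.35 (1422970_at, adjusted p = 0.0374) at 72 h, and at 24 h their arrays were separated in the same direction with changes of 0.16 and 0.25 that were not called. The effect at 72 h minus that at 24 h was 0.07 (95% interval -0.23 to 0.37).

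Mxi1, the antagonist also known as Mxd2, did not follow the other Mxd genes. It read 9.01, 8.74 and 8.61 in 72 h GDC-0623 cells, against 9.09, 9.03 and 8.98 in 72 h DMSO cells, and the groups overlapped through GDC-0623 array 1. The change was -0.25 ± 0.11 (adjusted p = 0.152). Without that array it was -0.36 and was called (adjusted p = 0.0234). At 24 h the change was 0.12 ± 0.10 (adjusted p = 0.494), with 8.68, 8.49 and 8.29 in GDC-0623 cells and 8.44, 8.30 and 8.37 in DMSO cells. A further probe set, 1425732_a_at, read 7.80, 7.84 and 7.54 in 72 h GDC-0623 cells, all below the 8.21, 8.04 and 7.92 of 72 h DMSO cells, and changed by -0.33 ± 0.11 (adjusted p = 0.0646). At 24 h it changed by -0.02 ± 0.10.

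Mnt, the antagonist found in nearly all cells, rose slightly. It read 8.93, 8.73 and 8.60 in 72 h GDC-0623 cells, against 8.50, 8.45 and 8.32 in 72 h DMSO cells, and 8.47, 8.40 and 8.33 in 24 h GDC-0623 cells, against 8.12, 8.03 and 8.20 in 24 h DMSO cells. Groups were separated at both times, and the changes were 0.33 ± 0.10 (adjusted p = 0.0483) and 0.28 ± 0.07 (adjusted p = 0.0298). These calls lie close to the threshold. Over all other settings run, the call was kept in 6 and lost in 8 at 72 h, and kept in 7 and lost in 7 at 24 h. At 72 h the call was lost when any array but GDC-0623 array 3 was left out (adjusted p between 0.0784 and 0.159), and at 24 h without DMSO array 1, DMSO array 2, GDC-0623 array 1 or GDC-0623 array 2 (between 0.0768 and 0.106). Its other probe set, 1418193_at, averaged 4.54 and gave -0.06 and -0.14, so the mean of the 2 probe sets was not called at either time (adjusted p = 0.228 at 72 h).

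Mga did not pass the test, although its 72 h arrays were separated. It read 7.37, 7.44 and 7.57 in 72 h GDC-0623 cells, each below the 7.63, 7.65 and 7.78 of 72 h DMSO cells, a change of -0.23 ± 0.09 (adjusted p = 0.102). The call was made where dim probe sets were filtered out (adjusted p = 0.0492) or quantile normalisation was repeated (0.0483). At 24 h the change was 0.02 (95% interval -0.16 to 0.20). Its probe set 1434746_at gave -0.33 (adjusted p = 0.0770) at 72 h, and the remaining 3 averaged between 3.20 and 3.83.

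Over all other probe sets of the members, 5 of 15 were called at 72 h and 3 of 15 at 24 h, all higher and all of Mxd3 or Mxd4. Of all 45037 probe sets 20.3% were called at 72 h and 16.7% at 24 h. No member had 2 probe sets called in opposite directions.

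**Figure D3:**
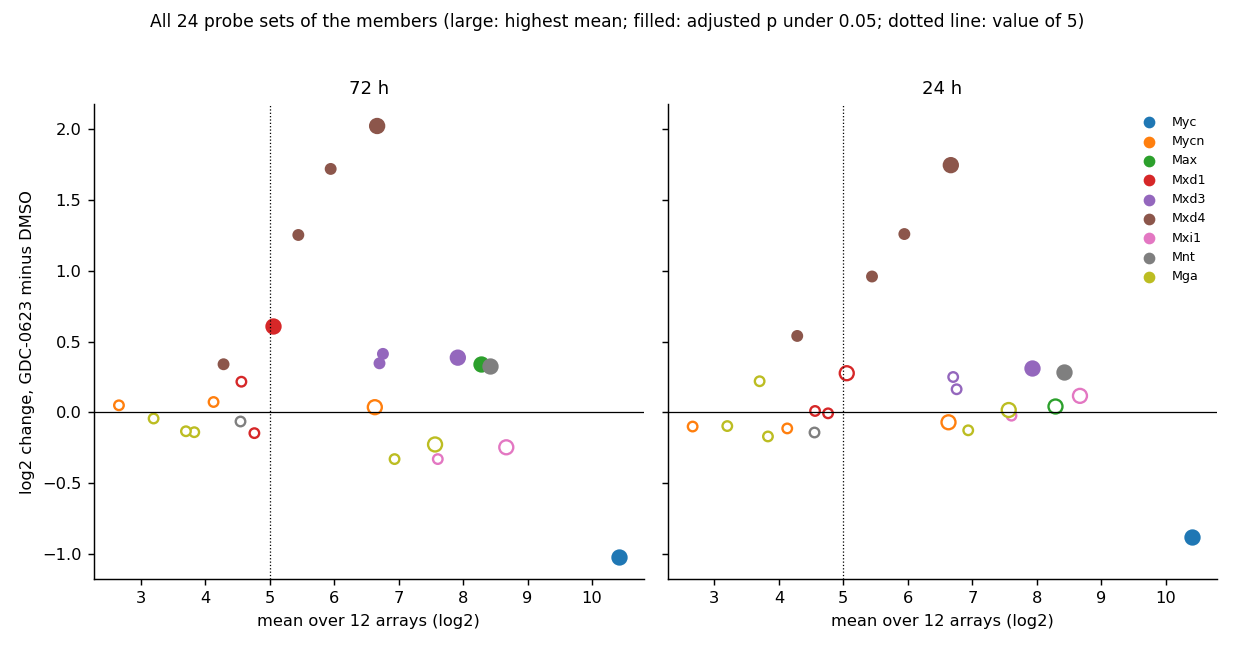
Log2 change (y axis, GDC-0623 minus DMSO) of all 24 probe sets at 72 h and at 24 h, against the mean over 12 arrays (x axis, log2); large points are the probe sets used for each gene and filled points had an adjusted p under 0.05. All 4 Mxd4 probe sets lay above 0 and were called at both times, and the other probe sets left of the dotted line at 5 were not called.

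Whether the response differed between the 2 times was tested as a difference of the effects over all 12 arrays. No member was called in limma, where 3.08% of all genes were (1.62% with a higher and 1.46% with a lower effect at 72 h), and 1 member, Mxi1, had an unadjusted p under 0.05. The effect at 72 h minus that at 24 h was -0.36 ± 0.15 for Mxi1 (adjusted p = 0.297), 0.33 ± 0.17 for Mxd1 (0.395) and 0.30 ± 0.21 for Max (0.576). It was 0.28 for Mxd4 (95% interval -0.21 to 0.76) and -0.14 for Myc (-0.48 to 0.20). The intervals leave room for differences as wide as the effects of Max, Mxd3 or Mnt, so a like response at both times was not shown. On the control scale the sign turned for Mycn, Mxd3 and Mnt and no member was called, while 369 probe sets were called higher and 673 lower, against 555 and 439 as deposited. Mxd1 and Max, called at 72 h and not at 24 h, are therefore not shown to differ between the times.

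Time in culture moved members in the absence of the drug. In DMSO cells, Mxi1, Myc, Mxd4 and Mnt rose and Mxd3 and Max fell at 72 h relative to 24 h. Thus 4 members were called higher and 2 lower. Of all genes 13.5% were called, 8.41% higher and 5.14% lower, and of those with a mean of at least 6, 23.5% were called. Mxi1 had the widest of these changes, 0.66 ± 0.07 (adjusted p = 9.34e-04), and its other probe set rose by 0.72 ± 0.08 (adjusted p = 0.00178). Myc rose by 0.46 ± 0.06 (adjusted p = 0.00353). Mxd4 rose by 0.34 ± 0.08 (adjusted p = 0.0249) and Mnt by 0.31 ± 0.08 (adjusted p = 0.0360), whereas Mxd3 changed by -0.37 ± 0.06 (adjusted p = 0.00848) and Max by -0.36 ± 0.08 (adjusted p = 0.0196). Of Mxd3, the probe set 1422970_at fell as well (-0.35 ± 0.09, adjusted p = 0.0341). The other 3 probe sets of Mxd4 changed by 0.04, -0.04 and 0.08 and were not called, so the Mxd4 change with time was seen by 1 of its 4 probe sets.

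The calls of Myc, Mxd3 and Mxi1 in DMSO cells held without any 1 array. That of Max ended without 24 h arrays 1 or 2 or 72 h arrays 1 or 2 (adjusted p between 0.0585 and 0.0705). That of Mxd4 ended without 24 h arrays 2 or 3 or 72 h arrays 1 or 3 (between 0.0687 and 0.0883), and that of Mnt without any array but 72 h array 3 (between 0.0572 and 0.116). Neither Max nor Mxd3 was called on the control scale, where 2876 probe sets were called higher and 835 lower, against 2948 and 2067 as deposited.

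In GDC-0623 cells no member was called between 72 h and 24 h, although 5 had an unadjusted p under 0.05 and 8.90% of all genes were called (5.79% higher, 3.11% lower). Mxd4 changed by 0.62 ± 0.19 (adjusted p = 0.0794) and Mnt by 0.35 ± 0.10 (0.0624), and for both every 72 h array lay above every 24 h array. Without 72 h array 1 the Mxd4 change was 0.39 (adjusted p = 0.126), and without 72 h array 3 that of Mnt was 0.43 and was called (adjusted p = 0.0435). Myc changed by 0.32 ± 0.13 (0.189), Mxi1 by 0.30 ± 0.13 (0.195) and Mxd3 by -0.30 ± 0.12 (0.155), with the Mxd3 arrays separated downwards. Each time comparison shares its arrays with the drug comparisons. On the control scale Mxd4 was called higher (0.50, adjusted p = 0.0303) and Mxd3 lower (-0.42, adjusted p = 0.0387), and there 1746 probe sets were called higher and 3754 lower, against 2272 and 1197 as deposited.

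**Figure D4:**
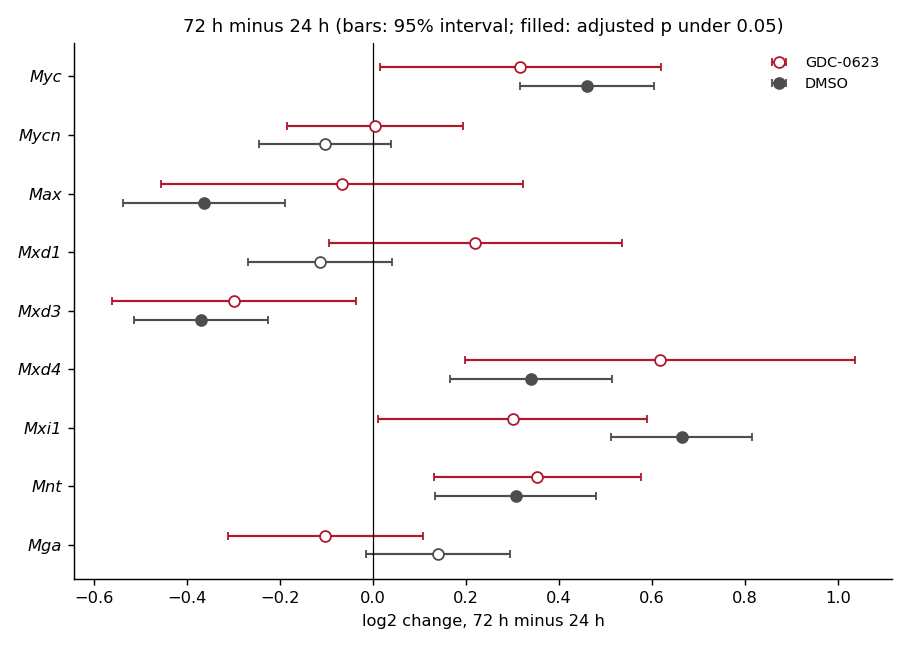
Log2 change from time (x axis, 72 h minus 24 h) of each member in GDC-0623 and in DMSO cells with its 95% interval; filled points had an adjusted p under 0.05. In all, 6 members were called in DMSO cells and none in GDC-0623 cells, where the intervals were wider for all members.

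Genes whose expression Myc is known to activate were lower with GDC-0623. The list spans ribosome biogenesis, polyamine, nucleotide and serine metabolism and the cell cycle. Of 35 measured, 25 fell and none rose at 72 h (median -0.47), and 26 fell and none rose at 24 h (median -0.38). Of all genes, 12.4% were lower at 72 h and 8.23% at 24 h, and the medians over all genes were -0.03 at both times. Among genes with a mean of at least 6, 21.6% were lower at 72 h and 13.8% at 24 h. At 72 h the widest falls were those of Odc1, which makes putrescine (-0.94 ± 0.12, adjusted p = 7.37e-04), Shmt2, the mitochondrial serine hydroxymethyltransferase (-0.94 ± 0.14, adjusted p = 0.00198), and Polr1b, a subunit of RNA polymerase I (-0.93 ± 0.18, adjusted p = 0.00625). At 24 h they were those of Nop58, a core protein of small nucleolar ribonucleoproteins (-0.72 ± 0.12, adjusted p = 0.00331), Polr1b (-0.70 ± 0.10, adjusted p = 0.00113) and the spermidine synthase Srm (-0.69 ± 0.09, adjusted p = 6.90e-04). On the control scale 11 of the 35 were called lower at 24 h (median -0.21) and 23 at 72 h (median -0.46). No gene of the list was called for a difference of its effects between 72 h and 24 h in limma, and 7 had an unadjusted p under 0.05. Of all genes 3.08% were called so, and 4.61% of those with a mean of at least 6, so this count is near the background.

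Genes that Myc is known to repress went mostly the other way, with exceptions. Of 11 measured, 6 rose and 2 fell at 72 h (median 0.42), and 8 rose and 1 fell at 24 h (median 0.50). Of all genes, 13.8% were higher and 12.4% lower at 72 h, and 13.3% higher and 8.23% lower at 24 h, with medians of -0.03. Among genes with a mean of at least 6 these shares were 21.9% and 21.6% at 72 h, and 22.5% and 13.8% at 24 h. Thbs1, which encodes thrombospondin 1, rose by 2.26 ± 0.11 at 72 h (adjusted p = 1.08e-05) and 0.91 ± 0.09 at 24 h (adjusted p = 2.16e-04). The receptor gene Pdgfrb rose by 1.29 ± 0.19 (adjusted p = 0.00151) and 2.15 ± 0.17 (adjusted p = 4.77e-05), and Ndrg1, a stress-responsive gene, by 1.54 ± 0.14 at 24 h (adjusted p = 1.40e-04). The DNA damage-inducible Gadd45a was lower with GDC-0623 than with DMSO by 1.47 on the log2 scale at 72 h (adjusted p = 3.14e-04). From 24 h to 72 h, Gadd45a rose in both GDC-0623 and DMSO cells, and by more in DMSO cells. Named after their values were seen, the cyclin-dependent kinase inhibitor genes did not act as a group. Cdkn1b rose at both times (1.06 and 0.88; adjusted p = 4.71e-04 and 9.62e-05), whereas Cdkn1a was lower at 72 h (-0.38, adjusted p = 0.0212) and higher at 24 h (0.47, adjusted p = 0.0121). The call of Cdkn1a at 72 h ended without any of the 3 DMSO arrays or GDC-0623 array 3 (adjusted p up to 0.0742). For 5 of the 11 genes the effect differed between the times. Of all genes 3.08% differed so, and 4.61% of those with a mean of at least 6. The difference of Gadd45a between GDC-0623 and DMSO at 24 h (-0.29, adjusted p = 0.0328) was not called on the control scale.

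The proteins that these factors recruit were measured as further lists. Of 8 Sin3 corepressor genes, which serve the Mxd proteins and Mnt, none was called at either time in limma, and 3 at 72 h and 1 at 24 h had an unadjusted p under 0.05. Their medians were -0.07 at 72 h and 0.01 at 24 h, and the lowest adjusted p was 0.0507, that of Sap30 at 72 h. Of 13 Myc cofactors, 5 fell at 72 h and 4 at 24 h and none rose. In either direction 26.3% of all genes were called at 72 h and 21.5% at 24 h. Among those with a mean of at least 6 the shares were 43.5% and 36.3%. Without regard to direction, the number of cofactors called lies near this background. The shares lower were 12.4% and 8.23% of all genes, and 21.6% and 13.8% of those with a mean of at least 6. The AAA+ ATPase genes Ruvbl2 and Ruvbl1 fell by 0.85 and 0.71 on the log2 scale at 72 h (adjusted p = 0.00290 and 0.00200) and by 0.67 and 0.54 at 24 h (adjusted p = 3.43e-04 and 0.00463). The chromatin adaptor Wdr5 fell by 0.47 at 72 h (adjusted p = 0.0151), a call lost without DMSO array 2 (0.0507) or 3 (0.0607). With the control scale 4 of the 13 were lower at 72 h and 2 at 24 h.

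Of 8 genes of the Mga-containing Polycomb complex, 3 fell at 72 h (median -0.25), and 4 fell and 1 rose at 24 h (median -0.20). In either direction 26.3% of all genes were called at 72 h, and 43.5% of genes with a mean of at least 6. The 72 h count lies between these shares, and the 24 h count above the 21.5% and 36.3% of that time. The shares lower were 12.4% and 8.23% of all genes, and 21.6% and 13.8% of those with a mean of at least 6. Pcgf6, the ring finger protein that defines this complex, changed by -0.80 ± 0.13 at 72 h (adjusted p = 0.00279) and -0.38 ± 0.07 at 24 h (adjusted p = 0.00682), and Yaf2 by -0.56 ± 0.09 (adjusted p = 0.00207) and -0.31 ± 0.08 (adjusted p = 0.0231). The Yaf2 call at 24 h ended without DMSO array 2, GDC-0623 array 1 or GDC-0623 array 3 (adjusted p between 0.0538 and 0.0869). The heterochromatin protein gene Cbx3 changed by -0.45 ± 0.08 at 24 h (adjusted p = 0.00474). By the control scale 3 were still called lower at 72 h and none at 24 h.

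Of 12 genes that set the stability of the Myc protein, 4 fell and 1 rose at 72 h (median -0.28), and 3 fell and 1 rose at 24 h (median -0.17). These counts are near the 43.5% and 36.3% of genes with a mean of at least 6 that were called, so they are no result about the list. Aurka, whose kinase shields Myc proteins from degradation, changed by -0.56 ± 0.13 (adjusted p = 0.0126) at 72 h, and Cip2a, an inhibitor of the phosphatase that acts on Myc, by -0.50 ± 0.13 (adjusted p = 0.0220). The call of Aurka ended without 72 h DMSO array 1 (0.0519) and that of Cip2a without any of the 3 DMSO arrays (0.0593 to 0.0773). The deubiquitinase gene Usp36 changed by -0.37 ± 0.07 (adjusted p = 0.00728) at 72 h and -0.43 ± 0.07 (adjusted p = 0.00269) at 24 h. Gsk3b, the kinase that marks Myc for the ubiquitin ligase Fbxw7, rose by 0.38 ± 0.08 at 24 h (adjusted p = 0.00795). None of the 12 was called lower at 24 h on the control scale (median 0.00).

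Of 4 further genes of the extended network, Mlxip, which encodes MondoA, a glucose-responsive factor that pairs with Mlx, rose at 72 h (0.30 ± 0.09, adjusted p = 0.0456). That call ended when any array but GDC-0623 array 2 was left out (adjusted p between 0.0714 and 0.161). Mycl, the third Myc paralogue, named after its values were seen, averaged 4.88 in 72 h GDC-0623 cells and 5.48 in 72 h DMSO cells and fell by 0.60 on the log2 scale (adjusted p = 0.00415). No gene of these 4 was called at 24 h, where 1 had an unadjusted p under 0.05. Of all genes 26.3% were called at 72 h and 21.5% at 24 h, so lists as short as these can hold no called gene. Of 2 genes that MondoA activates, Txnip and Arrdc4, none was called for the drug at either time in limma, with 1 at 72 h and 0 at 24 h at an unadjusted p under 0.05. Txnip was higher at 72 h than at 24 h in both GDC-0623 (0.72, adjusted p = 0.00307) and DMSO cells (0.60, adjusted p = 0.00243).

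**Figure D5:**
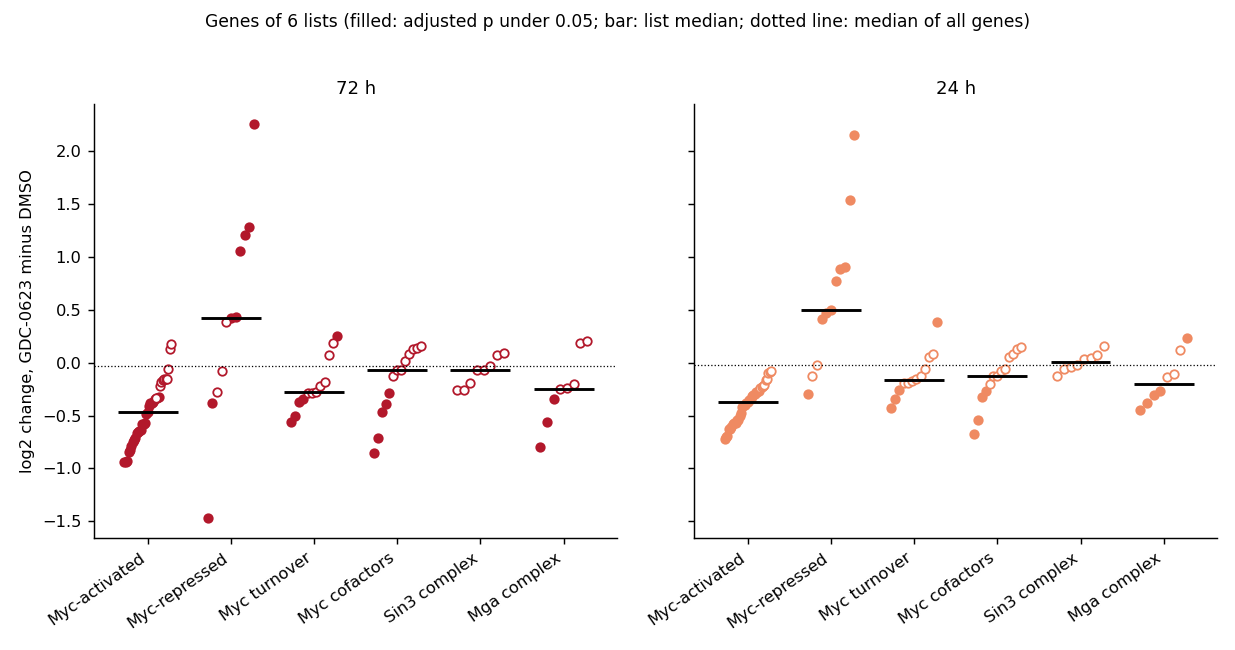
Log2 change (y axis, GDC-0623 minus DMSO) of the genes of 6 lists at 72 h and at 24 h; filled points had an adjusted p under 0.05, bars are list medians and the dotted line is the median of all genes. The median of the Myc-activated list lay at -0.47 and -0.38, that of the Myc-repressed list at 0.42 and 0.50 and that of the Sin3 list near 0.

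In DMSO cells Myc itself rose with time. Of the 35 Myc-activated genes, 10 were lower and 2 higher there at 72 h than at 24 h (median -0.13, beside -0.02 over all genes). Of all genes 5.14% were lower and 8.41% higher, and of those with a mean of at least 6 the shares were 8.88% and 14.6%. The transferrin receptor gene Tfrc changed by -0.86 ± 0.07 (adjusted p = 4.29e-04), the hexokinase gene Hk2 by 0.72 ± 0.07 (adjusted p = 7.35e-04) and the phosphatase gene Cdc25a by -0.54 ± 0.07 (adjusted p = 0.00246). Of the 11 Myc-repressed genes, 7 rose and 1 fell (median 0.36), with Gadd45a at 1.96 ± 0.12 (adjusted p = 8.30e-05). In GDC-0623 cells, 2 of the 35 were lower and 3 higher, and 5 of the 11 were higher, where 3.11% of all genes were lower and 5.79% higher. In either direction 14.0% of genes with a mean of at least 6 were called there, near the share of the 35.

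The genes whose profiles over the 12 arrays lay closest to a member were sought among 9131 genes with a mean of at least 6, each profile centred on its own mean. For Myc, whose values spread by 0.53 (root mean square) about their mean, these were the mitochondrial iron importer Slc25a37, the prolyl hydroxylase gene Egln3 and the Ras pathway inhibitor Spred2, at root mean square distances of 0.136, 0.145 and 0.148. Slc25a37 changed by -0.86 at 72 h and -0.80 at 24 h, Egln3 by -0.95 and -0.57 and Spred2 by -0.72 and -0.98. For Mxd4 (0.99 about its mean) they were the myelin protein gene Pmp22 (0.0741), Dlc1 (0.110) and Tent5a (0.155). At 72 h these changed by 2.14, 1.98 and 2.14. For Mxd3 (0.26 about its mean) they were Nfic (0.0978), the mitofusin gene Mfn2 (0.109) and the clathrin adaptor gene Ap2m1 (0.118). All 12 points of a profile come from the same 4 groups, so a short distance describes a like pattern over these groups and nothing more.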

How the data were processed

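Total RNA of 12 MC38 cultures was hybridised to Affymetrix mouse arrays. The authors deposited RMA-normalised log2 values (background correction, quantile normalisation and summary per probe set), with no detection calls, and RMA is what their notes to GEO name. After 64 control probe sets were left out, 45037 probe sets were tested, of which 34945 carried 1 gene symbol, 932 several and 9160 none. The number of arrays limits the precision.

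Drug and time comparisons were fitted on the 6 arrays concerned and the difference of effects on all 12, with lmFit and eBayes of limma 3.58.1 (R 4.3.3), two-sided, with Benjamini-Hochberg adjustment over all probe sets and a threshold of 0.05. The fits were also run on simulated data with far fewer changed probe sets than were called here, which checks the code only. Members and gene lists were chosen with earlier results of these data known. From each list up to 3 genes with the largest change among those called and with a group mean of at least 6 were named; exceptions are stated. Alternatives were 1 fit over 12 arrays, a replicate block, a filter on dim probe sets (at least 5 on 3 arrays), repeated quantile normalisation, a shift by 9 hybridization control probe sets, a trended robust prior, array weights, the mean of a gene's probe sets and leaving out each array. Profiles were compared by root mean square distance. Promoter windows came from RefSeq (GRCm38.p6). Protein sequences were not used here.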

Additional observations from a re-analysis of the deposited data

Results flagged for a closer look

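For 5 genes of the Myc-repressed list, of 11 measured, the GDC-0623 effects at 72 h and 24 h differed in the test of the difference itself (limma, 12 arrays). Of all genes 3.08% differed so, and 4.61% of those with a mean of at least 6. The difference was 1.35 ± 0.15 (SE, adjusted p = 4.39e-04) for Thbs1, with effects of 2.26 at 72 h and 0.91 at 24 h. It was -1.18 ± 0.19 (adjusted p = 0.00473) for Gadd45a, with effects of -1.47 and -0.29, and -1.12 ± 0.20 (adjusted p = 0.00973) for Ndrg1, with effects of 0.42 and 1.54. Cdkn1a had a difference of -0.85 ± 0.15 (adjusted p = 0.00677) between -0.38 at 72 h and 0.47 at 24 h. Cdkn2b had -0.69 ± 0.15 (adjusted p = 0.0270) between -0.27, which was not called, and 0.42. In DMSO cells Gadd45a, Ndrg1, Cdkn2b and Cdkn1a stood higher at 72 h than at 24 h, by 1.96, 1.48, 1.28 and 1.01, whereas Thbs1 stood lower, by -0.78, and these DMSO arrays enter each difference.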

How the results depend on the processing

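Of 1745 values of 120 gene-level results under other settings, 1579 kept their direction and side of the threshold, 130 were no longer called, 16 became called and 20 changed sign, all 20 among changes that were not called. Myc and Mxd4 stayed called at both drug times, and Mxd1 at 72 h, under every setting run. The causes of the changes were not tested.

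The sign of Mycn turned at 72 h with repeated quantile normalisation (-0.030) and without 72 h GDC-0623 array 1 (-0.0017; up to 0.058 without other arrays), and at 24 h on the control scale (0.10). That of Mga at 24 h turned with repeated quantile normalisation (-0.046), the mean of probe sets (-0.031) and without 24 h DMSO array 2 (-0.012) or 24 h GDC-0623 array 2 (-0.047; up to 0.073 without others), and that of Max without 24 h GDC-0623 array 2 (-0.18; up to 0.19). For the difference of effects, the control scale gave -0.05 for Mycn, -0.087 for Mxd3 and -0.11 for Mnt, and Mnt was -0.0050 without 72 h DMSO array 3 and -0.042 without 72 h GDC-0623 array 1 (up to 0.12). For time in GDC-0623 cells, Mycn was -0.032 with quantile normalisation, -0.12 on the control scale, -0.00026 with array weights, -0.052 without 24 h GDC-0623 array 2 (up to 0.038) and -0.035 without 72 h GDC-0623 array 1, and Max was 0.16 without 24 h GDC-0623 array 2 (down to -0.21) and 0.01 without 72 h GDC-0623 array 2.

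At 72 h, 2 members were lower, not 1, with the dim filter and with quantile normalisation. For time in GDC-0623 cells, no member was called in the main comparison, but the 12-array fit called 2 higher, the dim filter, the control scale and the trended prior 1 each, and the control scale 1 lower. In DMSO cells 1 member was lower in the 12-array fit and 0 on the control scale, and 2 were higher with the mean of probe sets. For time in GDC-0623 cells, 6520 probe sets were called in the 12-array fit and 5500 on the control scale, against 3469. With the mean of probe sets, which counts genes, 5057 were called at 72 h, 4328 at 24 h, 1783 for time in GDC-0623 and 2935 for time in DMSO cells, against 9134, 7533, 3469 and 5015 probe sets. On the control scale 11 Myc-activated genes were lower at 24 h, against 26, and the 1 Myc-repressed gene lower at 24 h became 0 there and in the 12-array fit.

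Without 1 array at a time, members higher and lower numbered 2 to 3 and 1 to 2 at 72 h, 1 to 4 and 1 to 1 at 24 h, 0 to 1 and 0 to 0 for time in GDC-0623 cells, and 2 to 3 and 1 to 2 for time in DMSO cells, and stayed at 0 for the difference. Probe sets called lay between 6021 and 8396 at 72 h, 5317 and 6529 at 24 h, 621 and 1221 for the difference (994 with all arrays), 1271 and 2778 for time in GDC-0623, and 2705 and 3708 for time in DMSO cells. Myc-activated genes lower numbered 17 to 25 at 72 h and 18 to 24 at 24 h, Myc-repressed genes higher 5 to 7 and 7 to 8, and lower 1 to 3 and 0 to 1.

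The arrays share only a replicate number. The correlation of same-numbered deviations ran from 0.0135 to 0.289 and was over 0.1 for every pair in no comparison. With the number as a block, 4 members were higher and 1 lower at 72 h, 2 and 1 at 24 h, 3 and 0 for time in GDC-0623, 3 and 1 for time in DMSO cells, and 0 and 0 for the difference. Blocked counts of probe sets were 8991, 7028, 4693, 4384 and 1279 for the same comparisons. Each array correlated best with its own number in the comparisons of drug at 72 h and time in DMSO cells, a hint from the data only.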
